A study of Mus musculus with 6 samples.

Results

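The non-cycling cells of GL261-GSCs were 388 of the 14893 cells of the 4 GL261-GSCs libraries that held at least 8000 UMIs, at least 500 genes and under 10% mitochondrial UMIs, out of 22868 such cells in the series. They were chosen by a measured value: a cell was a member when it held 0 UMIs in total of 7 proliferation genes (Mki67, Top2a, Cdk1, Birc5, Ube2c, Rrm2 and Ccnb1). A UMI is 1 counted RNA molecule. They were compared with the 9840 cells of the same libraries that held at least 10 UMIs of these genes, called cycling cells here. Replicates 1 to 4 gave 36, 71, 157 and 124 members and 2531, 3326, 3112 and 871 cycling cells.

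GL261 is a mouse glioma line, and GL261-GSCs are cultures derived from it and labelled glioblastoma stem cells. The series held 4 libraries of GL261-GSCs, grown in a defined medium for stem cells, and 2 of GL261, grown in medium with fetal calf serum. No genotype, passage or animal is given, nothing says that replicates are separate cultures, and the labels name single cells or nuclei without saying which entered the droplets. P-values therefore rest on differences between libraries, which may be technical. In the test of the share of members this is the spread of the library values. In the paired tests and those with the library as a block it is the spread of the change within each library. Libraries held 80899005 to 121309232 UMIs over all barcodes. Summed over the members, the UMIs of replicates 1 to 4 came to 476860, 753194, 1677485 and 1291762, against 11287782 to 48414141 over the cycling cells. Of the members, 2, 2, 2 and 4 had a barcode that was also a cell barcode in another library.

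Cells leave the division cycle from G1, when cyclin-dependent kinase inhibitors and the retinoblastoma family hold E2F transcription factors off their targets. In such cells the DREAM complex keeps genes of DNA synthesis and mitosis off, and at mitotic genes it acts through a short promoter element, the cell cycle genes homology region (CHR), often beside CCAAT boxes bound by NF-Y. In gliomas, slowly dividing cells are studied as a source of regrowth after therapies aimed at dividing cells.

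Promoters are shown for 2 genes of the rule, 2 of the largest falls and 2 of the largest rises, chosen after the matches were seen to show where CHR and CCAAT lie. Not all genes of these kinds matched: CHR stood in the windows of 4 of the 7 genes of the rule (not in those of Birc5, Rrm2 and Ccnb1). Each runs from 250 bases before to 50 bases after a gene start (RefSeq, GRCm38.p6), 5′ to 3′ on the strand of the gene. Capitals mark TTTGAA (CHR) and CCAAT on either strand, and adjoining or overlapping matches merge into 1 run. The windows are Ube2c at chr2:164769679-164769978 (plus strand), Cdk1 at chr10:69352863-69353162 (minus), Kntc1 at chr5:123749476-123749775 (plus), Prr11 at chr11:87108665-87108964 (minus), Tcp11l2 at chr10:84576697-84576996 (plus) and Gpnmb at chr6:49036268-49036567 (plus).
Ube2c: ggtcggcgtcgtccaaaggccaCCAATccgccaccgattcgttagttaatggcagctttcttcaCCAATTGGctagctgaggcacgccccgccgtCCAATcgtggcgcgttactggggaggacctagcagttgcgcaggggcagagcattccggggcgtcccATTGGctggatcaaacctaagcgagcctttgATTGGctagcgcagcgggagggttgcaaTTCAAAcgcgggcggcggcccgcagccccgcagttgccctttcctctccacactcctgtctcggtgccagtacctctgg
Cdk1: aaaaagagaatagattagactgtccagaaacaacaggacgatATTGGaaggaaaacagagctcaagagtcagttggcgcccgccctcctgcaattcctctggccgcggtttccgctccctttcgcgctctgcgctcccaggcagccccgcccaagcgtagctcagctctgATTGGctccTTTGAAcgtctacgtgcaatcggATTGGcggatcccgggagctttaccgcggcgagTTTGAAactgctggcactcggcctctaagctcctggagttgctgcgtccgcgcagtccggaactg
Kntc1: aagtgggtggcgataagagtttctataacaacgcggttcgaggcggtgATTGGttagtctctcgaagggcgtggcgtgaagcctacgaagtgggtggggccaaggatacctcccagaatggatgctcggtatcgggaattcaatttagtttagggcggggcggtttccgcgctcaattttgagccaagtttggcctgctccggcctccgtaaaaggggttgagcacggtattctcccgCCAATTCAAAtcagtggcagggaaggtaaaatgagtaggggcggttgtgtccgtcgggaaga
Prr11: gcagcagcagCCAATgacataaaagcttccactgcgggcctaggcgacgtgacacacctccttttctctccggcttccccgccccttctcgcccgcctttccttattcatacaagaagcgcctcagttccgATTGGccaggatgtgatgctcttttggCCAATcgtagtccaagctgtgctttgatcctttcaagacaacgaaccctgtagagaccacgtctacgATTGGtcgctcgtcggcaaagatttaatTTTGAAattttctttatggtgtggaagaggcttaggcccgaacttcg
Tcp11l2: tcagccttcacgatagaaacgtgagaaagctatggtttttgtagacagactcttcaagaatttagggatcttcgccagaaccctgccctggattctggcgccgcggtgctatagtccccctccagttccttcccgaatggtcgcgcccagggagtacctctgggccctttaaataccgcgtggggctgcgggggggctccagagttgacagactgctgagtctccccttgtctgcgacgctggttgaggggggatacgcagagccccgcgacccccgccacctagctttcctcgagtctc
Gpnmb: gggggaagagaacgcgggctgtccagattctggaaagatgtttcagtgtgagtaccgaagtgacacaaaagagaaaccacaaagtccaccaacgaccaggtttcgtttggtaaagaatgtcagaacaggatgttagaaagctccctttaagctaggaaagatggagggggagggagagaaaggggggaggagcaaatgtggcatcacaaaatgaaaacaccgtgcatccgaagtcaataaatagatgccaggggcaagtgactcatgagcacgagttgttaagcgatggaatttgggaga
Of the 6 windows, those of Ube2c, Cdk1, Kntc1 and Prr11 held a CHR match, and those of Tcp11l2 and Gpnmb held neither element. Among the 113 genes of a list of G2 and mitosis genes, 92 had a window, and 57 of their windows (56.4%) held CHR, against 11.9% of the 12372 windows of all genes tested and 17.9% of all 32851 windows of this length. CCAAT stood in 74.3% of the G2/M windows and in 38.5% of those of all genes tested. It also stood in 58.8% of G1/S windows, 64.0% of those of a list of quiescence genes and 52.0% of p53 target windows. Lysosome and autophagy genes had it in 25.0% of windows and ribosome biogenesis genes in 27.8%. Of the 85 windows of the G1/S list, 16.5% held CHR and 32.9% held an E2F match (TTTCCCGC, TTTCGCGC, TTTGCCGC or TTTGGCGC, either strand), against 495 of the 12372 windows of all genes tested. An E2F match also stood in 22.6% of windows of a list of G1 regulators and 22.2% of ribosome biogenesis windows. Of the 12 largest falls 10 had a window and 8 of these held CHR (not Arhgef39 and Hmx2), and of the 12 largest rises 11 had a window and 0 held CHR. CCAAT stood in 41.7% of the windows of the falls and 33.3% of those of the rises (Cd68, Coq8a, Gadd45b and Lgals3), beside 38.5% for all genes tested. For a list of quiescence genes, 5 of 25 windows held the forkhead letters GTAAACA on either strand, against 2.63% of all genes tested. Of p53 target windows 4 of 25 held them, so they were not particular to the quiescence list. A match is a description of letters, and binding was not measured.

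Members made up 0.999%, 1.53%, 3.23% and 6.95% of the cells of GL261-GSCs replicates 1 to 4, and cells of the same kind made up 2.50% and 1.85% of GL261 replicates 1 and 2. The exact 95% binomial interval was 0.701% to 1.38% in the lowest library and 5.81% to 8.23% in the highest, and covers counting error only. The GL261-GSCs libraries thus lay on both sides of the GL261 libraries. Their means, 3.18% ± 2.69 (SD, n = 4) and 2.18% ± 0.459 (SD, n = 2), gave p = 0.8 in a 2-sided exact permutation test whose 15 splits allow no p under 0.0667. With each cell thinned to 8000 UMIs the means were 5.20% and 4.57%, and without GL261-GSCs replicate 4 the difference changed sign.

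**Figure D1:**
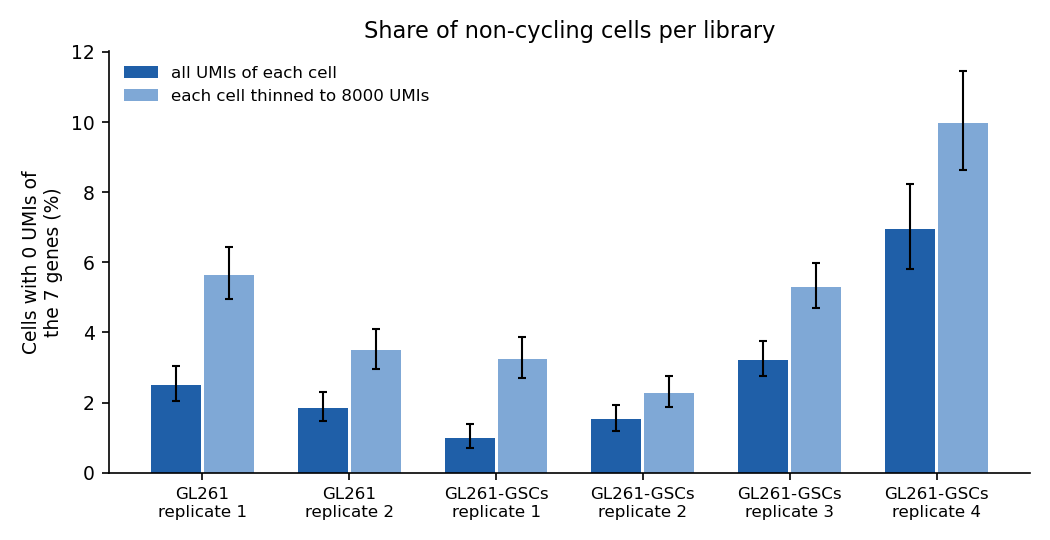
Share of cells with 0 UMIs of the 7 proliferation genes (vertical axis, percent) in each of the 6 libraries, from all UMIs of each cell (dark bars) and after thinning each cell to 8000 UMIs (light bars), with exact 95% binomial intervals. The GL261-GSCs libraries range from 0.999% to 6.95% and enclose both GL261 libraries.

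The label was checked on 2 lists of cell cycle genes that leave out the 7 genes of the rule. Since they are switched with those genes, their values are given with no test. Per 8000 UMIs, the median member of replicates 1 to 4 held 21.5, 20, 14 and 11 UMIs of the 91 G1/S genes, which serve DNA replication, and the median cycling cell 59, 62, 56 and 53. For the 113 G2/M genes the medians were 40.5, 43, 42 and 38 in members and 122, 148, 164 and 184 in cycling cells. Every median of the members was thus below every median of the cycling cells. The 90th percentile of members was 48, 49, 34.8 and 21.7 G1/S UMIs and the 10th percentile of cycling cells 36, 39, 33 and 28, so that by these percentiles the classes overlapped in replicates 1, 2 and 3 and not in replicate 4. All 113 G2/M genes and 90 of 91 G1/S genes were lower in members in all 4 libraries, as were 24.2% of all genes tested, with median log2 fold changes of -3.45 and -1.79.

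Cells just outside the rule were close to those inside it. Cells with exactly 1 UMI of the 7 genes numbered 92, 113, 234 and 192 and had medians of 23, 25, 16 and 12 G1/S UMIs. Cells with 9 UMIs, just short of the cycling class, had 49, 61, 50 and 66, and those with 10 had 51, 65, 53 and 52. Free RNA, read from barcodes with 100 to 1000 UMIs, held 16, 17.6, 17.5 and 13.1 UMIs of the 7 genes per 8000, where members hold 0 by choice, and 51.6, 54.4, 44.7 and 33.6 UMIs of the G1/S list. Members were thus below the free RNA in both measures, and the part that free RNA has in the choice of cells was not tested. A count of 0 does not separate cells that left the cycle from cells early in G1.

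**Figure D2:**
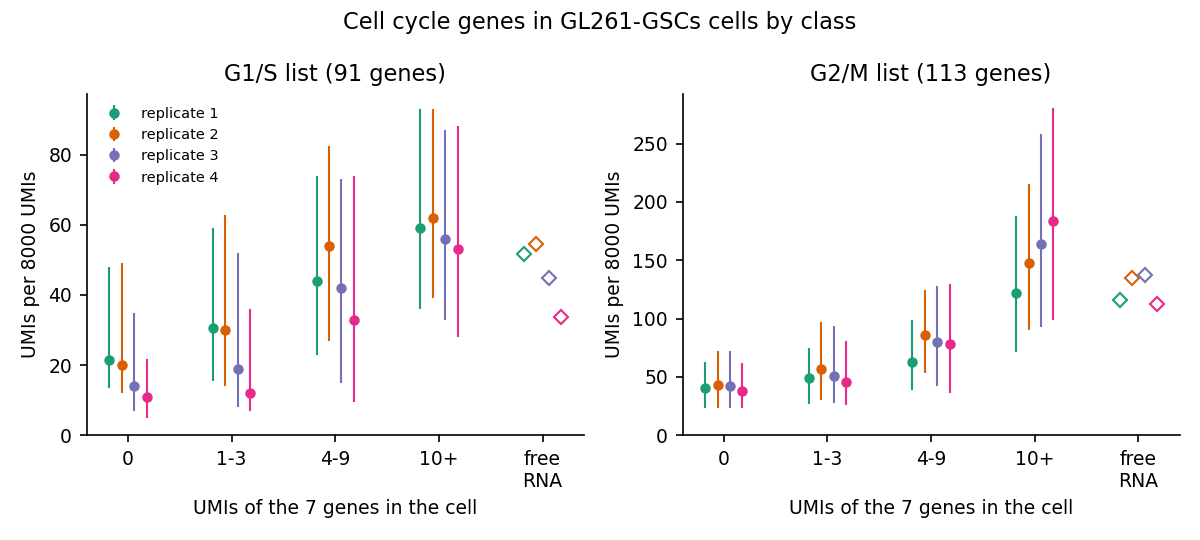
UMIs of the G1/S list (left) and the G2/M list (right) per 8000 UMIs, vertical axes, in GL261-GSCs cells grouped by their UMIs of the 7 proliferation genes, with free RNA as open diamonds. Points are medians, lines run from the 10th to the 90th percentile of cells, and colours are replicates. Members (class 0) have the lowest medians in every replicate.

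Members held fewer UMIs than cycling cells in 4 of 4 libraries. The median member held 12230, 10010, 10040 and 10024 UMIs and the median cycling cell 17976, 13987, 14272.5 and 12307. The means of these medians were 10580 ± 1103 and 14640 ± 2390 (SD, n = 4). The classes are cut on UMI counts, so that the rule itself favours cells of few UMIs among members, and this difference is given with no test. At 8000 UMIs per cell, members had fewer genes (3113 ± 89.1 against 3183 ± 74.7) and a higher share of Malat1, a nuclear RNA (0.370% ± 0.115 against 0.295% ± 0.0912), in 4 of 4 libraries. Each gave p = 0.125 in a 2-sided exact paired permutation test, the smallest p that 4 libraries allow, and 0.208 after adjustment over 5 measures, depth included. The count of genes includes the 7 genes of the rule and both cell cycle lists, so the rule itself lowers it in members. Mitochondrial UMIs, at 1.13% ± 0.0716 against 1.05% ± 0.0676, were higher in 2 of 4 libraries (exact p = 0.5). Ribosomal protein genes took 18.9% ± 2.63 of UMIs in members against 17.65% ± 1.35 and were higher in 3 of 4 libraries (exact p = 0.25), and among cells with 8000 to 16000 UMIs in 4 of 4 (exact p = 0.125). Against cells with 1 to 9 UMIs of the 7 genes, members had 18.0 fewer genes (more in 1 of 4 libraries, exact p = 0.375), and the ribosomal protein share differed by 0.02 percentage points (exact p = 1.0).

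Across all genes, members and cycling cells differed widely. UMIs were summed per library and class, and 13264 genes were tested with edgeR's quasi-likelihood test, with the library as a block and Benjamini-Hochberg adjustment, at an adjusted p under 0.05. The test called 4150 genes (31.3%), of which 1873 (14.1%) were higher and 2277 (17.2%) lower in members, and over all genes the median was 0.02 on the log2 scale. These counts, and the shares of all genes given below, include the G1/S and G2/M lists, which are tied to the rule. Outside those lists 1873 of 13060 genes were higher and 2075 lower. Which direction held more calls depended on the scaling: library sizes in place of TMM gave 2177 higher and 1952 lower, and DESeq2's size factors in edgeR 2157 and 2023. Of the called genes, 554 were at least 2-fold higher, and 539 at least 2-fold lower, of which 344 were in neither cell cycle list. Genes outside those lists can still act in division, among them Kntc1, Cep55 and Espl1. The classes did not overlap across libraries for 2263 genes (17.1%). Values are given as CPM (UMIs per 1e6 UMIs, with TMM-scaled library sizes), and every fold change is of members over cycling cells on the log2 scale. Without the block 1175 of 12196 genes were called (385 higher, 790 lower), against cells with 1 to 9 UMIs of the 7 genes 1096 of 12881 (346 higher, 750 lower), and without replicate 3, 2528 of 12777.

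The largest rises and falls were taken among called genes outside the cell cycle lists that reached 20 CPM in the higher class and went the same way in 4 libraries. By these limits the largest rise was that of Tcp11l2 (chromosome 10, 84576626-84614359, GRCm38). It stood at 40.7, 64.5, 129 and 134 CPM in members of replicates 1 to 4 and at 11.2, 12.9, 16.8 and 15.9 CPM in cycling cells. The lowest member library was above the highest cycling library, and the rise was 2.69 ± 0.14 on the log2 scale (SE; edgeR's adjusted p = 2.53e-17). Fbxo32 (chromosome 15, 58175879-58214932), a muscle atrophy ubiquitin ligase that FOXO factors switch on, stood at 71.6, 61.9, 57.1 and 41.1 CPM in members and 13.5, 8.89, 8.11 and 9.21 CPM in cycling cells. These groups did not overlap either, and the rise was 2.58 ± 0.16 (adjusted p = 7.20e-16, edgeR). Kdm5b (chromosome 1, 134560171-134635285), which removes methyl groups from lysine 4 of histone H3, was at 63.9, 78.4, 81.0 and 97.2 CPM in members. Its cycling libraries, at 17.7, 20.9, 12.9 and 16.4 CPM, were all lower, and it rose by 2.31 ± 0.14 (adjusted p = 7.01e-16, edgeR).

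Gpnmb (chromosome 6, 49036546-49070929), a membrane glycoprotein of lysosomes and melanosomes, had the highest level of the 12 largest rises. It stood at 1210, 1265, 1893 and 2325 CPM in members and at 354.5, 544, 429.5 and 427 CPM in cycling cells. The groups did not overlap, and the log2 fold change was 1.90 ± 0.11 (adjusted p = 2.19e-16, edgeR). Lgals3, the sugar-binding protein galectin-3, was at 170.3, 149, 745 and 388 CPM in members and 39.7, 13.4, 154 and 133 CPM in cycling cells. The ranges overlapped between libraries. Members were higher within each of them, which the limits on these genes required, and the rise was 2.25 ± 0.15 (adjusted p = 6.31e-15, edgeR). At 8000 UMIs, drawing from the free RNA alone would give a Gpnmb UMI in 91.5% to 99.7% of cells, and 84.5% to 91.1% of members had one, so no share of cells is read from it. For Lgals3 the free RNA alone would give 40.3%, 25.2%, 87.0% and 84.9% in replicates 1 to 4, and 38.9%, 31.0%, 60.5% and 67.7% of members had a UMI. Such a draw fills all 8000 UMIs with free RNA. Barcodes of free RNA had medians of 472 to 679 UMIs in these libraries, and the amount in each cell was not measured. The mean member of replicates 1 to 4 held 10.5, 10.2, 14.3 and 18.8 Gpnmb UMIs at 8000 UMIs, against 2.90, 4.55, 3.59 and 3.43 in cycling cells.

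The other genes among the 12 largest rises were lower in level. Nupr1, a stress-induced regulator of transcription, rose by 2.29 ± 0.20, from 9.48 ± 3.77 to 46.6 ± 25.7 CPM (SD, n = 4, adjusted p = 2.00e-11, edgeR). Cd68, a lysosomal membrane protein best known from macrophages, rose by 2.22 ± 0.18, from 10.5 ± 3.48 to 46.7 ± 20 CPM. At 8000 UMIs the free RNA alone would give a Cd68 UMI in 11.2%, 7.69%, 22.3% and 19.7% of cells of replicates 1 to 4. Of members 30.6%, 8.45%, 22.9% and 18.55% had one, and the part of free RNA was not tested. Over all members there were 218 UMIs of Cd68 and, of other myeloid markers, 1 of Csf1r and 0 of Ptprc, Aif1, Tyrobp, Itgam, C1qb and Fcer1g. Coq8a, which serves coenzyme Q synthesis, rose by 2.16, Fgl2 by 2.09, Ahnak2 by 1.97, Gadd45b, a gene of growth arrest and stress, by 1.94 and Pik3ip1, an inhibitor of PI3 kinase, by 1.90. Fgl2 alone among these 7 overlapped between groups, with members at 7.11 to 63.9 CPM and cycling cells at 1.95 to 9.25 CPM. It was higher in members in 4 of 4 libraries, which the limits on these genes required. Of all genes tested, 17.1% did not overlap, and these 7 were chosen for large rises.

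**Figure D3:**
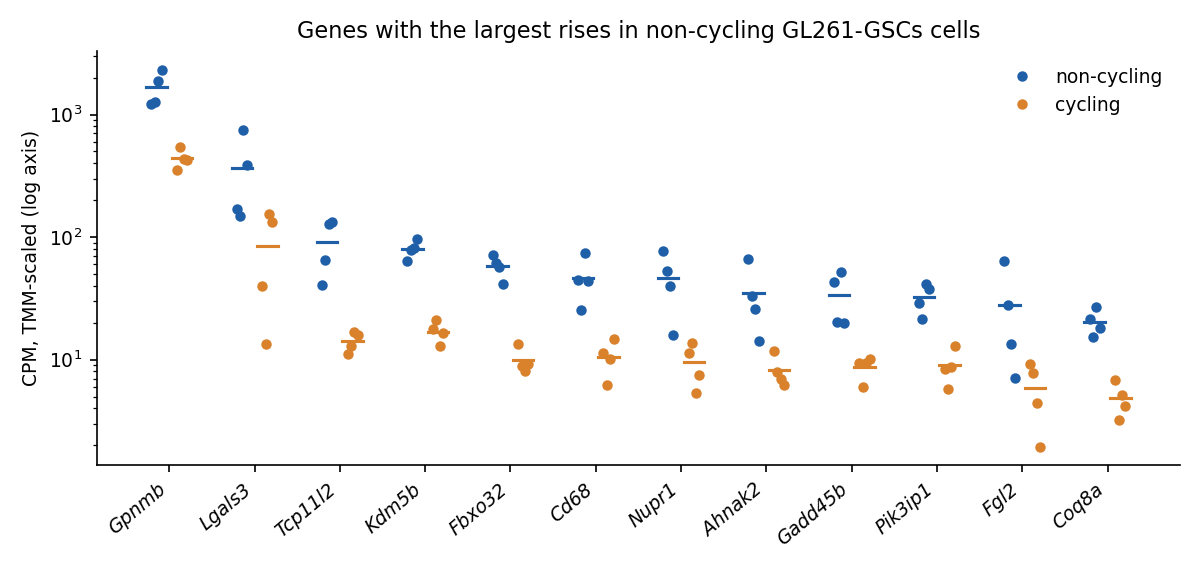
CPM (TMM-scaled, log axis) of the 12 genes with the largest rises in non-cycling (blue) and cycling (orange) GL261-GSCs cells. Each point is 1 library and each bar a mean over 4 libraries. The groups are separate for 10 of the genes, and overlap for Lgals3 and Fgl2. Of all genes tested, 17.1% are separate, and these 12 were chosen for large rises.

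The 12 largest falls by the same limits had log2 fold changes of -5.22 to -3.54. They were BC030867, Arhgef39, Kntc1, Cep55, Ankle1, Parpbp, Hist1h2ae, Eme1, Bard1, Espl1, Hmx2 and Prr11. Several act in mitosis or DNA repair: Kntc1 in the spindle checkpoint, Cep55 in the final cut between daughter cells, Espl1 as separase, Bard1 as the partner of Brca1 and Eme1 as the partner of the nuclease Mus81. Hist1h2ae, an H2A histone gene of the replication cluster, had the highest level, at 58.1, 45.5, 33.1 and 38.7 CPM in members and 678, 655, 450.3 and 653 CPM in cycling cells. The groups did not overlap, and near-identical histone genes may make its counts uncertain, which was not measured. Division genes are switched with the genes of the rule, so the values of these falls are given with no test. Kntc1 was at 5.81, 1.26, 1.23 and 0 CPM in members and 37.8, 26.9, 37.2 and 34.1 CPM in cycling cells. Arhgef39 had 3 UMIs in all members. With UMIs pooled over libraries, its level in cycling cells was 32.8 times as high, with a 95% counting interval of 11.2 to 159. The interval covers counting error only and leaves out the spread between libraries.

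The gene lists described from here on were chosen with earlier results of these data known. Their counts are descriptions, and no list was tested as a set. Of 26 regulators of the step from G1 into S tested in a list of 27, 3 were higher (Cdkn1a, Cdkn2b and Ccnd2), 11 lower (Cdkn2d, Lin54, Tfdp1, Rbl1, Cdkn2c, Skp2, E2f4, Lin9, Cdk2, Cdk4 and Lin52) and 12 not called, with a median of -0.33, where 14.1% of all genes were higher, a share close to that of the list, and 17.2% lower. Cdkn1a, the kinase inhibitor p21, was at 188, 168, 278 and 223.5 CPM in members and 121, 100.3, 174 and 188 CPM in cycling cells. The ranges overlapped and members were higher in 4 of 4 libraries, at 0.56 ± 0.09 (adjusted p = 9.91e-06, edgeR). At 8000 UMIs the free RNA alone would give a Cdkn1a UMI in 67.7%, 66.4%, 82.0% and 86.9% of cells of replicates 1 to 4. Of members 63.9%, 64.8%, 72.0% and 66.1% had one, and of cycling cells 50.9%, 45.7%, 61.05% and 64.1%. The part of free RNA in this rise was not tested. The inhibitors Cdkn2d and Cdkn2c fell by 1.59 ± 0.14 and by 1.33 ± 0.21 on the log2 scale. Against cells with 1 to 9 UMIs of the 7 genes their values were 0.03 and 0.31, neither called, and Ccnd2 changed sign. By library size Ccnd2 averaged 117.5, 115.7, 113.8 and 90.6 CPM in cells with 0, 1 to 3, 4 to 9 and at least 10 UMIs.

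Cyclin D1, which starts the passage through G1, showed no difference. Ccnd1 was at 2480, 1666, 1599 and 1528 CPM in members and 2313, 1819, 1461 and 1633 CPM in cycling cells, with a log2 fold change of 0.00 ± 0.07 (adjusted p = 0.985, edgeR). Ccnd3 (-0.09, adjusted p = 0.494), Cdkn1b, the inhibitor p27 (-0.26, adjusted p = 0.106), and Cdkn2a (0.16, adjusted p = 0.109) were not called by edgeR either, and Cdkn1c, with 1 UMI in all members, was not tested. The replication genes Mcm6 and Pcna, members of the G1/S list, were lower by -1.30 and -1.38 with no overlap, given with no test. Mcm6 was at 130.0, 149, 93.6 and 55.7 CPM by library size in members, 176, 184, 144 and 88.3 in cells with 1 to 3 UMIs of the 7 genes, and 229, 252, 238 and 217 in cycling cells.

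Most of the quiescence genes tested were higher in members. Of 23 tested in a list of 26, 15 were higher (Btg2, Pik3ip1, Ypel3, Id3, Clu, Btg1, Klf9, Foxo3, Ypel5, Tob1, Ndrg2, Klf4, Txnip, Id2 and Klf2), 1 lower (Zfp36l2) and 7 not called, with a median of 0.69 beside 0.02 for all genes, of which 14.1% were higher. Btg2, an antiproliferative gene that p53 also switches on, was at 91, 36.7, 156 and 79.8 CPM in members and 35.6, 15.4, 38.8 and 41.8 CPM in cycling cells. The ranges overlapped through replicate 2, and Btg2 was higher in 4 of 4 libraries, at 1.47 ± 0.14 (adjusted p = 9.08e-11, edgeR). Its relative Btg1 rose by 0.99 ± 0.15 with no overlap. At 8000 UMIs the free RNA alone would give a Btg2 UMI in 30.1%, 13.5%, 39.6% and 47.3% of cells of replicates 1 to 4. Of members 52.8%, 22.5%, 60.5% and 39.5% had one. Without the block 6 of the list were higher, as were 385 of 12196 genes in all, and against cells with 1 to 9 UMIs of the 7 genes 3 were, as were 346 of 12881 genes in all.

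Of 21 p53 genes tested, 5 were higher (Bbc3, Sesn3, Trp53inp1, Cdkn1a and Gdf15), 3 lower (Trp53, Aen and Zmat3) and 13 not called, with a median of 0.15, where 14.1% of all genes were higher and 17.2% lower. Bbc3, which encodes the cell death protein PUMA, was at 69.7, 51.8, 92.0 and 67.1 CPM in members and 25.7, 18.0, 26.7 and 32.4 CPM in cycling cells. These did not overlap, at 1.47 ± 0.13 (adjusted p = 2.82e-11, edgeR). Trp53 itself fell by 0.52 ± 0.10 on the log2 scale, and its targets Mdm2 (0.26, adjusted p = 0.134, edgeR) and Ccng1 (0.15, adjusted p = 0.471, edgeR) were not called.

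Genes that build ribosomes were lower almost throughout. Of 23 tested, 22 were lower, 0 higher and 1 (Gnl3) not called, with a median of -0.66, where 17.2% of all genes were lower. Nolc1, a nucleolar protein, was at 217, 254, 167.5 and 163.5 CPM in members and 474, 486, 361 and 332 CPM in cycling cells. The groups did not overlap, and Nolc1 fell by 1.05 ± 0.09 on the log2 scale (adjusted p = 2.81e-12, edgeR). By library size it averaged 206, 259, 370.0 and 404 CPM in cells with 0, 1 to 3, 4 to 9 and at least 10 UMIs of the 7 genes. Myc, which drives ribosome genes in many cells, was higher in members, at 501, 554, 641 and 563 CPM against 454, 401, 477 and 443 CPM (0.35 ± 0.08, adjusted p = 7.09e-04, edgeR). Against cells with 1 to 9 UMIs of the 7 genes its log2 fold change was -0.03, while 17 of the ribosome genes were lower there (750 of 12881 genes in all), and without the block 10 were (790 of 12196).

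Lysosome and autophagy genes went the other way: of 21 tested, 19 were higher, 0 lower and 2 (Ctsz and Tfeb) not called, with a median of 0.63, where 14.1% of all genes were higher. Ctsl, the protease cathepsin L, was at 1949, 726, 387 and 298 CPM in members and 759, 344.5, 198 and 180.5 CPM in cycling cells. Levels differed so much between libraries that the ranges overlapped, but members were higher in each, at 1.04 ± 0.09 (adjusted p = 3.44e-12, edgeR). Summed over the list, members held 6396 to 10720 CPM by library size and cycling cells 4324 to 6068 CPM, without overlap. Against cells with 1 to 9 UMIs of the 7 genes 14 were higher (346 of 12881 genes in all), and without the block 11 were (385 of 12196).

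**Figure D4:**
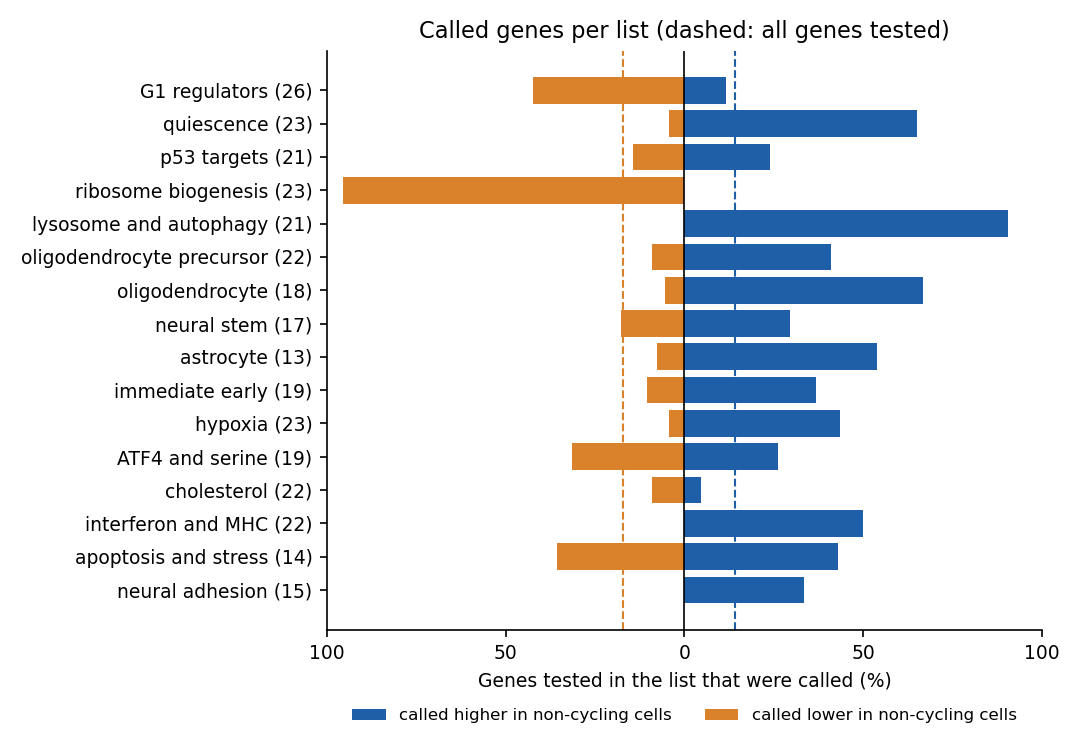
Share of the tested genes of 16 lists (number tested in brackets) that were called higher (blue, to the right) or lower (orange, to the left) in non-cycling than in cycling GL261-GSCs cells, in percent. Dashed lines give the share of all genes tested, cell cycle lists included, 14.1% higher and 17.2% lower. Of lysosome and autophagy genes 19 of 21 were higher, and of ribosome biogenesis genes 22 of 23 were lower. The lists were chosen with earlier results of these data known, and no list was tested as a set.

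Of 22 markers of oligodendrocyte precursors tested, 9 were higher (Gpr37l1, Olig1, Lims2, Sox8, Bcan, Sox6, Sox10, Xylt1 and Kit), 2 lower (Pdgfra and Vcan) and 11 not called, with a median of 0.29, where 14.1% of all genes were higher and 17.2% lower. The call of Kit (0.32, adjusted p = 0.0427, edgeR) was lost without replicate 1 (0.12, adjusted p = 0.502) and without replicate 2 (0.38, adjusted p = 0.051). Olig2, the factor that defines the lineage, was not called, at 435.5, 416, 756 and 636 CPM in members and 397, 429, 851 and 760 CPM in cycling cells (-0.10 ± 0.08, adjusted p = 0.387, edgeR). Pdgfra, the growth factor receptor of these precursors, was at 31.0, 45.5, 124 and 107 CPM in members and 58.1, 87.2, 162.5 and 176 CPM in cycling cells. It was lower in members in 4 of 4 libraries although the ranges overlapped, and fell by 0.65 ± 0.11 on the log2 scale (adjusted p = 1.76e-05, edgeR). Gpr37l1 rose by 1.78 ± 0.18, but its members in replicate 1 held 0 UMIs. Without the block none of the list was called higher by edgeR, where 385 of 12196 genes in all were, and 3103 had an unadjusted p under 0.05.

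Of 18 markers of oligodendrocytes, the cells that make myelin, 12 were higher, among them Opalin, Cnp, Mbp, Bcas1, Mog and Gpr17, 1 lower (Cldn11) and 5 not called, with a median of 0.67, where 14.1% of all genes were higher and 17.2% lower. Cldn11, a claudin of myelin, was at 27.1, 83.4, 7.98 and 0.79 CPM in members and 57.2, 106.7, 17.4 and 9.39 CPM in cycling cells. The ranges overlapped, and Cldn11 was lower in members in 4 of 4 libraries and fell by 0.80 ± 0.19 on the log2 scale (adjusted p = 0.00112, edgeR). Opalin, a membrane protein of oligodendrocytes chosen here after its values were seen, was at 52.3, 125, 55.2 and 38.7 CPM in members and 33.7, 57.1, 16.8 and 14.4 CPM in cycling cells. The ranges overlapped, and Opalin was higher in members in 4 of 4 libraries. Without the block 2 of the list were higher (385 of 12196 genes in all), and against cells with 1 to 9 UMIs of the 7 genes 5 were (346 of 12881).

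Of 17 neural stem cell markers tested, 5 were higher (Sox4, Cd9, Hes6, Msi1 and Zeb1), 3 lower (Nfib, Pax6 and Bmi1) and 9 not called, with a median of 0.08, close to the 0.02 of all genes, of which 14.1% were higher and 17.2% lower. Sox4 rose by 0.89 ± 0.08, from 209 ± 23.1 to 392 ± 69.4 CPM (SD, n = 4, adjusted p = 4.60e-11, edgeR), with no overlap. Nfib fell by 0.93 ± 0.15 on the log2 scale with no overlap. Sox2, a stem cell factor, was not called (0.08, adjusted p = 0.611, edgeR). Of 13 astrocyte markers tested, 7 were higher, with the smallest p for S100b (1.20 ± 0.11) and the largest fold for Gpr37l1, 1 lower (Gja1) and 5 not called, beside those same shares of all genes, and Gfap, Slc1a2 and Aldh1l1 had 0 UMIs in members. Fibroblast, endothelial and mural markers gave no called gene, with 2 and 0 tested.

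Of 23 hypoxia genes, 10 were higher, with the smallest p for Ddit4, an inhibitor of mTOR complex 1, 1 was lower and 12 were not called, beside 14.1% of all genes higher and 17.2% lower. Ddit4 was at 968, 868, 1629 and 1722 CPM in members and 439, 343, 806 and 989 CPM in cycling cells, overlapping between libraries and higher in each (1.07 ± 0.08, adjusted p = 4.26e-13, edgeR). With replicates 1 and 2 only, 2 hypoxia genes were higher (613 of 14492 genes in all), with replicates 3 and 4 only, 16 were (1645 of 12432), and without replicate 3, 5 were (998 of 12777). Of 22 interferon and MHC genes, 11 were higher and 0 lower, against the same shares of all genes. The smallest p was that of Rsad2, at 251.6, 20.2, 49.1 and 45.0 CPM in members and 38.0, 24.9, 14.2 and 11.7 CPM in cycling cells. Rsad2 was lower in members of replicate 2 and far highest in those of replicate 1.

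Of 19 immediate early genes, 7 were higher (Atf3, Fos, Dusp1, Junb, Myc, Jun and Zfp36), 2 lower and 10 not called, where 14.1% of all genes were higher and 17.2% lower. Fos rose by 0.96 ± 0.12, from 73.5 ± 16.6 to 139 ± 39.1 CPM (SD, n = 4, adjusted p = 3.36e-08, edgeR). Atf3 was at 242, 125, 53.4 and 12.6 CPM in members and 34.7, 31.2, 13.4 and 17.0 CPM in cycling cells, so that replicate 4 went the other way. Of 19 genes of the ATF4 response and serine synthesis, 5 were higher (Nupr1, Ddit3, Atf5, Trib3 and Chac1) and 6 lower (Mthfd2, Shmt2, Slc7a5, Psat1, Phgdh and Psph), 8 were not called and the median was -0.09, against the same shares of all genes. Of 14 genes of apoptosis and stress, 6 were higher, with the smallest p for Gadd45b, 5 lower and 3 not called, beside the same shares of all genes.

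The same rule applied to GL261, the serum-grown line, gave 97 and 76 cells, so that the change from cycling to non-cycling cells could be compared between the groups. The difference between the changes of the groups was tested in 13822 genes with edgeR's quasi-likelihood test, with the library as a block. It was called for 148 genes (1.07%), of which 116 (0.839%) had the higher log2 fold change in GL261-GSCs and 32 (0.232%) the lower. With library sizes in place of TMM scaling, 65.1% of the calls were higher, and with no filter on low counts 66.4%, beside 78.4%. It was called for 78 genes without GL261 replicate 1, 84 without GL261 replicate 2 and 77 without GL261-GSCs replicate 3. Without the block edgeR called 0 genes, with 481 at an unadjusted p under 0.05.

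Gpnmb and Lgals3, both among the 12 largest rises, rose more in GL261-GSCs. Gpnmb rose by 1.90 in GL261-GSCs and by 0.41 in GL261, where members stood at 445 and 409 CPM and cycling cells at 376 and 272 CPM. The difference was 1.49 ± 0.16 (SE, adjusted p = 1.14e-09, edgeR). Lgals3 rose by 2.23 in GL261-GSCs and had a log2 fold change of 0.31 in GL261 (not called), at 1517 and 1464 CPM in members and 1198 and 1213 CPM in cycling cells. All GL261 values lay above the GL261-GSCs values of 13.3 to 736 CPM, and the difference was 1.92 ± 0.18 (adjusted p = 3.90e-12, edgeR). Eps8, an actin regulator, differed by 1.33 ± 0.16, Col2a1, a cartilage collagen, by 1.32 ± 0.16 and Anxa5, a phospholipid-binding annexin, by 1.10 ± 0.14, and none of these 3 was called in GL261. Col2a1 stood at 48.2, 62.4, 193 and 469 CPM by library size in members of GL261-GSCs replicates 1 to 4. In their cycling cells it was at 41.2, 44.6, 74.9 and 170 CPM, so that it rose mostly in replicates 3 and 4.

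Of the genes with the lower change in GL261-GSCs, Timp3, an inhibitor of metalloproteinases, had a log2 fold change of -0.18 there and 0.64 in GL261, a difference of -0.83 ± 0.13 (adjusted p = 9.41e-06, edgeR). The differences were -1.38 for Larp1b, -1.16 for Rhox5, -0.92 for Mmp15 and -0.92 for Tubb4b. Tubb4b is a tubulin gene of the G2/M list and tied to the genes of the rule. Its call is not read as a result. In GL261-GSCs replicates 1 to 4 Rhox5 stood at 25.2, 0, 495 and 457 CPM by library size in members. Cycling cells had 47.2, 4.50, 588 and 506 CPM of it. Without GL261 replicate 1 the differences of Rhox5, Mmp15 and Tubb4b were not called, and without GL261 replicate 2 that of Mmp15 was not. For 2 genes the result rested on 1 library. Rgs16, a regulator of G protein signalling, differed by 2.12, but stood at 1.90, 89.8, 0.606 and 0.781 CPM in members of GL261-GSCs, and without replicate 2 its difference was -0.26. Spp1, the secreted protein osteopontin, differed by -3.23, but stood at 0 and 72.2 CPM in members of GL261, and without GL261 replicate 2 it was not called, with no fold to give because the members left in GL261 held 0 UMIs.

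**Figure D5:**
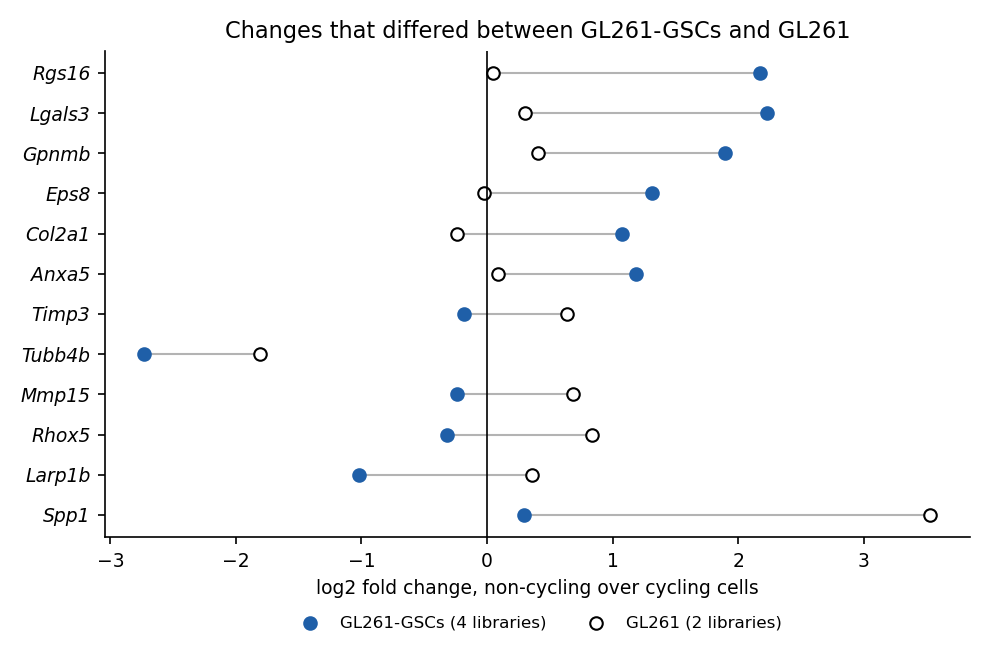
Log2 fold change of non-cycling over cycling cells (horizontal axis) in GL261-GSCs (filled, 4 libraries) and GL261 (open, 2 libraries) for the 12 genes named from the test of the difference, joined by a line. Gpnmb lies at 1.90 and 0.41, and Spp1 and Rgs16 each rest on 1 library. Tubb4b is a gene of the G2/M list, which is tied to the choice of cells.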

How the data were processed

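Groups and replicate numbers came from the sample titles. The UMI counts deposited by the authors are unfiltered matrices of 54446 genes by 737280 barcodes, made with Cell Ranger 4, as recorded per the file headers. The build, per the submitters' processing notes, was mm10. No other step is given in the sources used here. Doublets were not removed.

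Members and gene lists were chosen with earlier results of these data known. Counts were summed per library and class, leaving out the 7 genes of the rule, and tested with edgeR 4.0.16 in R 4.3.3 (glmQLFit, glmQLFTest, TMM, filterByExpr, Benjamini-Hochberg, 2-sided), with the library as a block because both sums come from the same library. The common dispersion was 0.00662 and 3 residual degrees of freedom remained. DESeq2 1.42.0 was an alternative. The SE is the absolute log2 fold change divided by the square root of F. Single values were compared by exact permutation (numpy 2.4.6), and intervals are Clopper-Pearson at 95% (scipy 1.17.1). Thinning to 8000 UMIs was without replacement.

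Named genes were, outside the cell cycle lists, the 12 largest rises and falls with at least 20 CPM, called and the same way in 4 libraries, leaving out Gm, Rik, mitochondrial and ribosomal protein symbols; from each list the called rise and fall with the smallest p; a set of cycle, p53 and glial genes; the 6 smallest p each way in the difference; and the 10 most variable genes. Some genes that this rule names are not reported here. Other genes are named as the called members of a list. Gene coordinates are from GENCODE M21 (GRCm38). Aldoa and Ddit3 share a symbol between identifiers, and the identifier with more UMIs was used. On simulated counts with 200 genes changed by a log2 fold change of 1, edgeR recovered 151 of them among 12733 genes with 10 false calls (DESeq2 127 with 0), and for the difference 88 among 13170 with 2 false calls.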

Additional observations from a re-analysis of the deposited data

Results flagged for a closer look

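Among 80 sets of 4 library values checked with Dixon's test, 1 stood apart, where chance gives about 1 in 20: the ratio of Kit, a receptor kinase, between members and cycling cells of GL261-GSCs replicate 1, at 0.85 on the log2 scale. Genes with no UMI in the members of a library were left out of this check. The change from cycling to non-cycling cells differed between GL261-GSCs and GL261 by the test of the difference for 12 named genes. The log2 fold change in GL261-GSCs minus that in GL261 was 1.92 for Lgals3, 1.49 for Gpnmb, 1.33 for Eps8, 1.10 for Anxa5, 1.32 for Col2a1 and 2.12 for Rgs16. It was -0.83 for Timp3, -3.23 for Spp1, -1.38 for Larp1b, -1.16 for Rhox5, -0.92 for Mmp15 and -0.92 for Tubb4b. Tubb4b is a gene of the G2/M list, tied to the genes of the rule, and its call is not read as a result. Rgs16 rests on GL261-GSCs replicate 2 and Spp1 on GL261 replicate 2.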

How the results depend on the processing

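Beside 4150 genes called (1873 higher, 2277 lower), edgeR called 1915 (753 and 1162) among cells with at least 12000 UMIs, 1096 (346 and 750) against cells with 1 to 9 UMIs of the 7 genes, 1989 (613 and 1376) in replicates 1 and 2 only, and 1219 higher with the third of members lowest in G1/S genes. Without the replicate block it called 1175 (385 and 790). Leaving out 1 replicate gave 2528 to 3899 calls, 998 to 1811 higher and 1530 to 2088 lower. DESeq2 called 2992. For the difference from GL261 (148 calls, 116 higher, 32 lower) edgeR called 98 with thinned cells (19 lower), 71 higher with library sizes, 50 lower with no filter, and 0, 0 and 0 with no replicate block. Leaving out 1 library gave 77 to 215 calls, 63 to 143 higher and 11 to 72 lower, and where GL261 kept 1 library, it is assumed to vary like the rest. The difference in the share of members, 0.997 percentage points, was -0.254 at 12000 UMIs and between -0.26 and 1.72 without 1 library, negative without GL261-GSCs replicate 4.

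Of 1355 values of 77 named results under 25 settings, 1222 kept direction and side of the threshold, 96 lost the call, 15 gained one and 22 changed sign. Against cells with 1 to 9 UMIs these were Cdkn2d (0.0335), Ccnd1 (-0.12), Ccnd2 (-0.0236), Cdkn1b (0.0923), Cdkn2c (0.31) and Myc (-0.0279). Ccnd1 was also -0.0735 at 12000 UMIs, -0.0044 under 5% mitochondrial UMIs, -0.0136 with no filter, -0.0331 in replicates 1 and 2 only, -0.13 in the third lowest in G1/S genes and between -0.0272 and 0.0464 without 1 replicate, negative without replicates 1 and 3. Replicates 1 and 2 only gave Ccng1 -0.17, Olig2 0.0178 and Sox2 -0.14, and replicates 3 and 4 only gave Ccnd3 0.0715 and Mdm2 -0.0718. Without 1 replicate, Ccng1 was between -0.0097 and 0.28 and Sox2 between -0.0519 and 0.157, both negative without replicate 4. The difference of Rgs16 was between -0.26 (without GL261-GSCs replicate 2) and 2.27, and that of Spp1 between -4.71 and 8.97, the last without GL261 replicate 2, set by the prior count against members at 0 UMIs and no measure of size. Causes were not tested. Member sums of 476860 to 1677485 UMIs limit genes of low level.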

Other observations

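Members also varied among themselves. Genes were ranked by their ratio of variance to mean at 8000 UMIs per cell in each library, and the 10 whose lowest rank over the 4 libraries was best were Gpnmb, Mt3, Fth1, Gm42418, Malat1, Cryab, mt-Cytb, Rps2, Mt1 and Vim. That lowest rank was 10 for Gpnmb and 45 for Vim. Gpnmb had ratios of 42.5, 22.0, 39.1 and 85.8 in replicates 1 to 4. For Mt3, a metallothionein of the brain that binds zinc and copper, the ratios were 65.5, 63.7, 21.1 and 15.7. A ratio of 1 would be counting error alone, and since the ratio grows with level no order is read between genes.

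Of 15 neural adhesion genes, 5 were higher (Tmeff2, Nrcam, Cadm2, L1cam and Alcam) and 0 lower, where 14.1% of all genes were higher and 17.2% lower. Tmeff2 stood at 255.5, 257, 288 and 211 CPM in members and 135, 117, 152 and 129 CPM in cycling cells, without overlap (0.92 ± 0.09, adjusted p = 1.35e-10, edgeR). Of 6 neuronal genes tested 1 was higher (Syt1, 0.55 ± 0.14), beside 14.1% of all genes, and Dcx, Snap25 and Gad1 had 0 UMIs in members. Among nuclear RNAs, Neat1 (0.54 ± 0.09) and Malat1 (0.33 ± 0.07) were higher and Kcnq1ot1 was not called. The list of serum-grown GL261 markers gave no tested gene, with 5 UMIs in all members.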
